A study of Mus musculus with 6 samples.

Results

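The nuclear-encoded respiratory chain genes were followed in mouse embryonic fibroblasts (MEFs) that lack p53 and carry a hairpin against ARF or a control hairpin. The members were the protein-coding genes whose symbols name a subunit of complexes I to V, with cytochrome c1, cytochrome c and the 4 succinate dehydrogenase genes. The rule took symbols that begin with Ndufa, Ndufb, Ndufc, Ndufs or Ndufv and a digit, with Uqcr, with Cox4 to Cox8 or with Atp5, and left out pseudogene names. It found 87 of the 54752 rows of the count table, or 86 symbols, since Atp5o has a second gene ID. No measured value entered the rule. Of the 87 rows, 79 had enough reads to be tested, and the other 8 are described by their counts.

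Both groups were p53-deleted MEFs, which are fibroblasts grown out of mouse embryos, kept in medium with serum and infected with lentivirus. The 3 shARF libraries came from cells given ARF shRNA (genotype label ARF knockdown), and the 3 shNT libraries from cells given a negative control shRNA (genotype label WT). The labels call the replicates biological and do not say whether they came from separate infections or embryos, so p-values measure the spread among these samples, which may be technical. Nor do they say whether a group is a pool or a clone, or which cell line each hairpin was put into. Every sample title in both groups also carries the label neo, and the titles do not say what it stands for. RNA was depleted of ribosomal RNA before sequencing, and the deposited values are counts per gene, with totals of 45.2 to 46.3 M in shARF and 40.3 to 47.0 M in shNT. The hairpin's target, Cdkn2a, which encodes ARF and p16INK4a, was at 95.6, 103 and 107 CPM (counts scaled to library size) in shARF, against 231, 218 and 223 CPM in shNT. Its level was lower by edgeR (log2 fold change -1.14, SE 0.05, adjusted p = 2.52e-06), and a two-sided exact permutation test returned p = 0.1, the lowest possible with 3 libraries a group. All 10 fibroblast markers averaged above 1 CPM in both groups, with 5 higher and 2 lower in shARF (Pdgfra at 91.4 CPM in shARF and 502 CPM in shNT, Dcn at 45.5 CPM in shARF and 198 CPM in shNT) and a summed level of 24258 to 24529 CPM in shARF and 20994 to 22621 CPM in shNT.

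The groups differed in sex-linked genes. Xist, the RNA of the inactive X chromosome, was at 40.7, 54.3 and 42.1 CPM in shARF and at 413, 389 and 360 CPM in shNT, and all 4 Y-linked genes tested were higher in shARF. Summed markers of other cell types were at 1.28 to 1.54 CPM in shARF and 2.3 to 2.69 CPM in shNT for immune cells, at 0.958 to 1.48 CPM in shARF and 0.51 to 1.15 CPM in shNT for muscle, and at 32.7 to 34 CPM in shARF and 36.8 to 39.6 CPM in shNT for epithelium. They were at 2.81 to 3.62 CPM in shARF and 2.4 to 2.89 CPM in shNT for endothelium, at 35.9 to 41.1 CPM in shARF and 25.9 to 28.6 CPM in shNT for neural cells, and at most 0.134 CPM in shARF and 0 in shNT for adipocytes. The neural sum was nearly all Tubb3, which averaged 38.9 CPM in shARF and 27.6 CPM in shNT. Of the other neural markers, Sox2 was at 0 in all libraries and Gfap averaged 0.045 CPM in shARF and 0.0673 CPM in shNT. Adgre1 and Cd3e of the immune markers were at 0 in all 6 libraries, as were the muscle markers Myod1, Myog, Ckm, Actn2 and Myh6. The immune marker Cd68 averaged 1.36 CPM in shARF and 2.5 CPM in shNT, and the muscle marker Tnnt2 1.11 CPM in shARF and 0.793 CPM in shNT. Within the sums, single markers lay far apart: Kdr averaged 3.13 CPM in shARF and 0.282 CPM in shNT, Tek 0.067 CPM in shARF and 2.16 CPM in shNT, Krt18 0.15 CPM in shARF and 12.7 CPM in shNT, and Cdh1 4.8 CPM in shARF and 2.14 CPM in shNT, all named after their values were seen. The labels do not say that both groups were made from the same embryo or line, so the hairpin and the origin of the cells cannot be told apart in any difference between shARF and shNT. The part of these marker differences in the results was not tested. In bulk RNA, fewer cells of a type and less RNA per cell cannot be told apart.

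The respiratory chain sits in the inner mitochondrial membrane. Complexes I and II pass electrons from NADH and succinate to ubiquinone, complex III passes them to cytochrome c, and complex IV passes them to oxygen. Complexes I, III and IV pump protons, and complex V, the ATP synthase, uses the proton gradient to make ATP. All complexes but complex II also hold subunits made from mitochondrial DNA, and nuclear and mitochondrial subunits are assembled together with the help of dedicated assembly factors. The 13 genes on mitochondrial DNA were listed at 0 counts throughout, so the results cover the nuclear subunits alone.

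The promoters of 6 members on which the results turn are shown, since they stand for the directions seen: Atp5g2 and Atp5g3 code for the same mature ring subunit and went opposite ways, Cycs and Cox5a were higher in shARF, and Ndufb7 and Ndufa9 were lower. Each is 300 bases of GRCm38.p6 from RefSeq, 5′ to 3′ on the gene's strand, from 250 bases before the RefSeq start to 50 after it, and that start can differ from the one used for the counts. Capitals mark a match to the NRF1 motif (GCGCA, any base, GCGC), which reads the same on both strands in Atp5g2 and is on the opposite strand in Atp5g3. In Ndufa9 they mark a match to the YY1 motif AAGATGGCG. NRF1 and YY1 are transcription factors known to act at promoters of respiratory chain genes. The other 3 windows hold no match to these motifs or to the ETS motif CCGGAAGT, and none of the 3 motifs contains another.
Atp5g2, chr15:102670998-102671297, minus strand: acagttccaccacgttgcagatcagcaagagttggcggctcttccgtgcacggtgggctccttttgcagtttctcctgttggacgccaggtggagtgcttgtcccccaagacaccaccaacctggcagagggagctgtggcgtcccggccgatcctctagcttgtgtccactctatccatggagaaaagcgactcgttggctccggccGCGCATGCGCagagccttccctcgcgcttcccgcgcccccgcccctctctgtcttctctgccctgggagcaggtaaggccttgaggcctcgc
Atp5g3, chr2:73911277-73911576, minus strand: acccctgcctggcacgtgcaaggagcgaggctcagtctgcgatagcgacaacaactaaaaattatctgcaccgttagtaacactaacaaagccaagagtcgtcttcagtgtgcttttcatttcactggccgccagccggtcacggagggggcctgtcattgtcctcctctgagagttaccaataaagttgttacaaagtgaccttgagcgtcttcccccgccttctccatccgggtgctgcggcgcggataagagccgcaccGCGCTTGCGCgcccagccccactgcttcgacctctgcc
Cycs, chr6:50566520-50566819, minus strand: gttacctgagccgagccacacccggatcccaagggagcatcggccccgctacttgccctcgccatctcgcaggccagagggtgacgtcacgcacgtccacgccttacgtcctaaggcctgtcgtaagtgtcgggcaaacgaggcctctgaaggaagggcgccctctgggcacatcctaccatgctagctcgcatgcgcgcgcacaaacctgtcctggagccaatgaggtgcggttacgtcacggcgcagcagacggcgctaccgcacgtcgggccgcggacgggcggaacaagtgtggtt
Cox5a, chr9:57520982-57521281, plus strand: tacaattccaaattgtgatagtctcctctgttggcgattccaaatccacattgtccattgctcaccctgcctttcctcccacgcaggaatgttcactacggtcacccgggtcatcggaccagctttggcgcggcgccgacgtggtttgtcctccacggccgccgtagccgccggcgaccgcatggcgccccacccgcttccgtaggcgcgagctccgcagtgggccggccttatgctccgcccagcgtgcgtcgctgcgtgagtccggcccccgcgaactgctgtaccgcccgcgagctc
Ndufb7, chr8:83566508-83566807, plus strand: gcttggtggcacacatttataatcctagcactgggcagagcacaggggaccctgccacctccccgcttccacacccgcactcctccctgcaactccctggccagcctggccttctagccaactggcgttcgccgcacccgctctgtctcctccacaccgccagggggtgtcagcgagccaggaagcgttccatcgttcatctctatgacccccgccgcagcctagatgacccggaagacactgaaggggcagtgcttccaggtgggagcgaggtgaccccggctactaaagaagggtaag
Ndufa9, chr6:126849095-126849394, minus strand: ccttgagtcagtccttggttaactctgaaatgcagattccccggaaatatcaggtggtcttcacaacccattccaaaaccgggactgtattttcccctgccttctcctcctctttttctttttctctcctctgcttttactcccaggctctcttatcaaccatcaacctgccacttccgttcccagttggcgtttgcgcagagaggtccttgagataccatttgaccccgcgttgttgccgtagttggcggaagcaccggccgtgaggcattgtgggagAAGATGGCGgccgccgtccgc

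Among the 69 of 86 members with a RefSeq promoter, 65 were tested for expression. The NRF1 letters, read on both strands, were in 17 of the 65 (26.2%). That is against 11.2% of the 10750 tested genes with a promoter and 5.19% of all 27025 genes with a promoter of this length. A gene with more than 1 window was counted once. YY1 letters were in 7 of the 65 (10.8%, against 3.41%), and ETS letters in 5 (7.69%, against 8.87%). The NRF1 letters were in 5 of 12 members called higher in shARF, in 6 of 22 called lower and in 6 of 31 not called. By complex, the NRF1 letters were in 7 of 31 genes of complex I with a promoter, 6 of 15 of complex V and 1 of 10 of complex IV. These matches are descriptions of the windows and name no site.

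The respiratory chain genes shifted by small amounts in both directions, with more lower than higher members in complex I. Of the 79 members tested, 17 were higher and 27 lower in shARF at an adjusted p below 0.05 (edgeR quasi-likelihood test, adjusted over 17128 genes), and 35 were not called. The called share was 55.7%, next to 56.4% of all genes tested (28.8% higher and 27.7% lower), so that the number of calls is not in itself a result about these genes. The sizes were smaller than over all genes: the median absolute log2 fold change of called members was 0.25, against 0.52 for all called genes. At least a 2-fold change was called for 2 members (2.53%), Ndufb7 and Cox6a2, against 14.4% of all genes, and at least a 1.5-fold change for 3 (3.8%), which adds Atp5mpl, against 25.3%. Most members are abundant: 77 of the 79 averaged at least 10 CPM, against 9755 of the 17128 genes. The figures for all genes, here and below, were not matched for level. The median log2 fold change over the members was -0.07, and -0.01 over all genes. No overlap between the groups' CPM was found for 21 members on the higher side and 29 on the lower side, next to 32.6% and 32% of all genes. With library sizes alone as the scaling, which takes the median of all genes to -0.10, the members' median was -0.16 and the split was 10 higher and 39 lower.

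**Figure D1:**
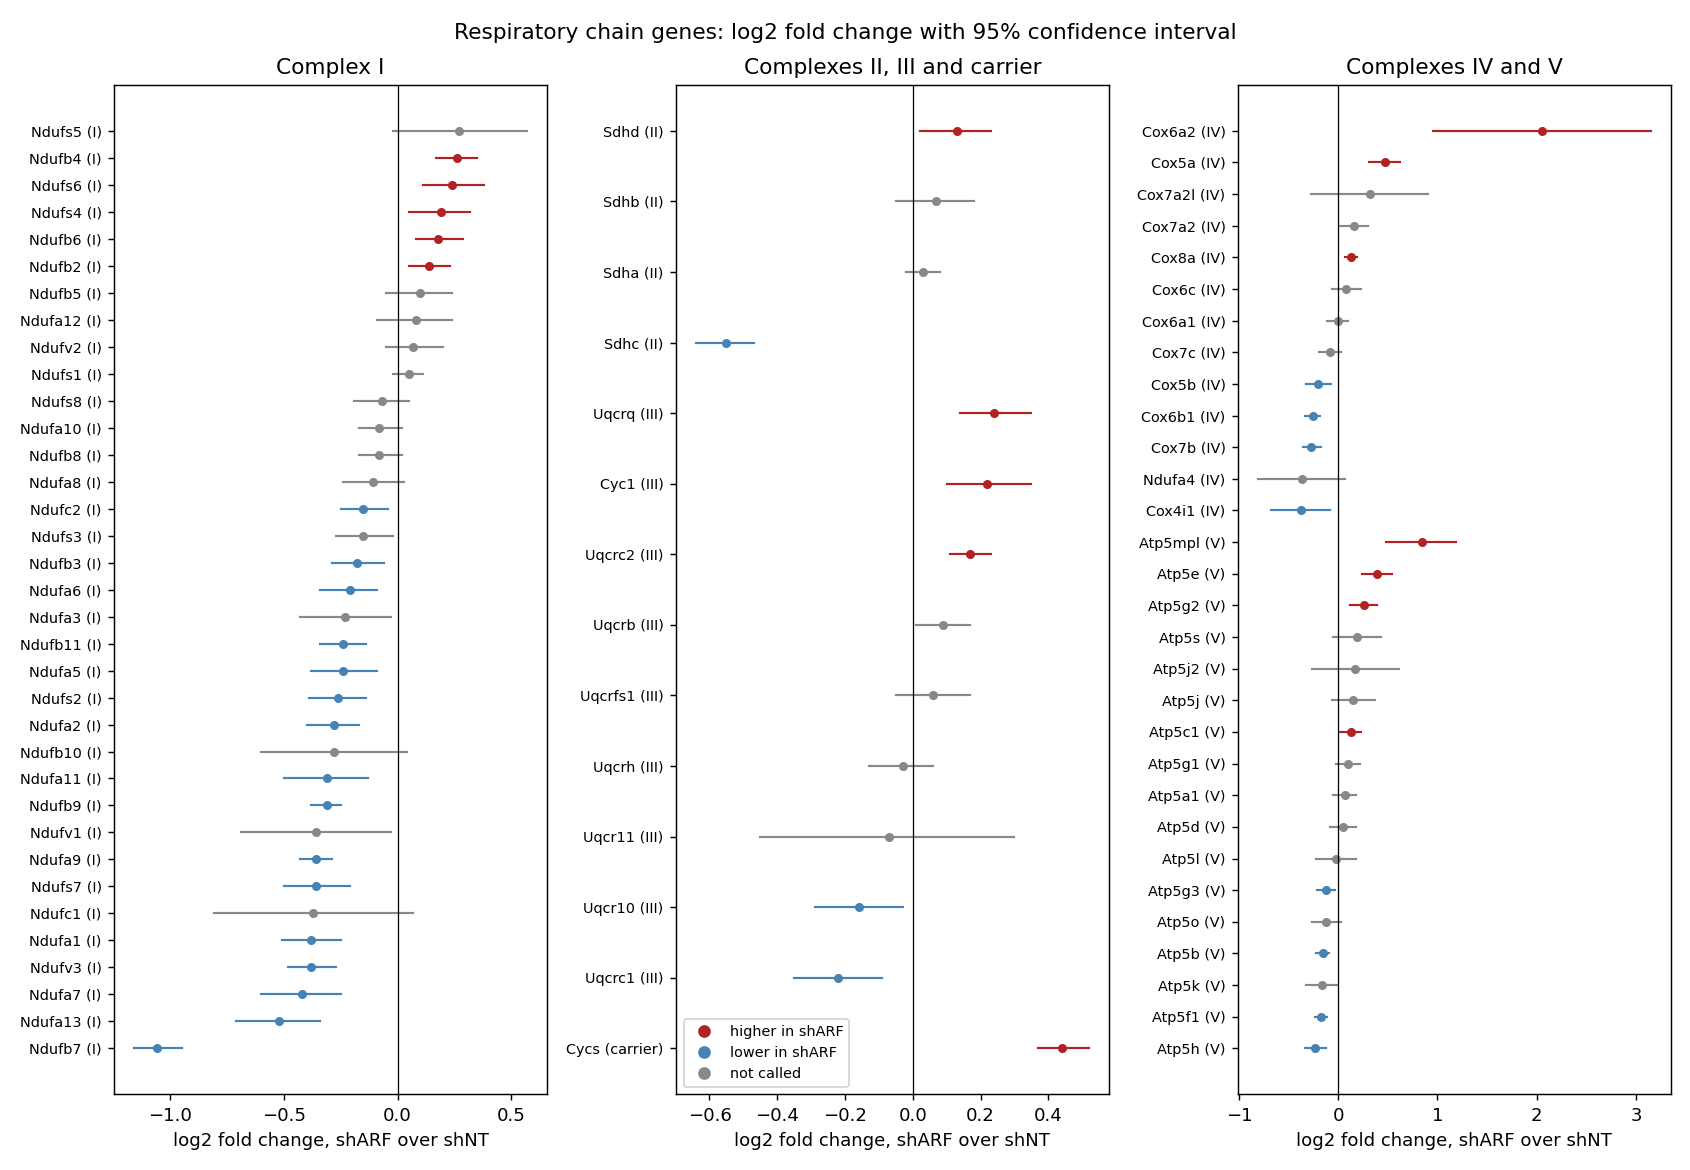
Log2 fold change of shARF over shNT for each of the 79 members tested, by complex, with the 95% confidence interval of the edgeR fit as a bar (3 libraries per group; the 3 panels have different horizontal scales). Red members are called higher in shARF (17), blue ones lower (27) and grey ones not called (35), and most points lie within 0.5 of 0.

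Added up, the transcripts of complex I were at 1655, 1583 and 1607 CPM in shARF, against 1753, 1810 and 1907 CPM in shNT. All 3 shARF sums lay below all 3 shNT sums, at means of 1615 ± 36.3 and 1823 ± 77.5 CPM (SD, n = 3 each), or 88.6% of the shNT level. The sum for the carrier, which is Cycs alone, was at 136% of the shNT level. The other sums lay close to shNT and their libraries overlapped: complex II was at 98.4%, complex III at 103%, complex IV at 97.9% and complex V at 99.1%. Over all members the sums were 6395 ± 110 CPM in shARF and 6607 ± 195 CPM in shNT (96.8%). A sum of CPM weights a gene by its abundance and length, and no test was made on it.

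**Figure D2:**
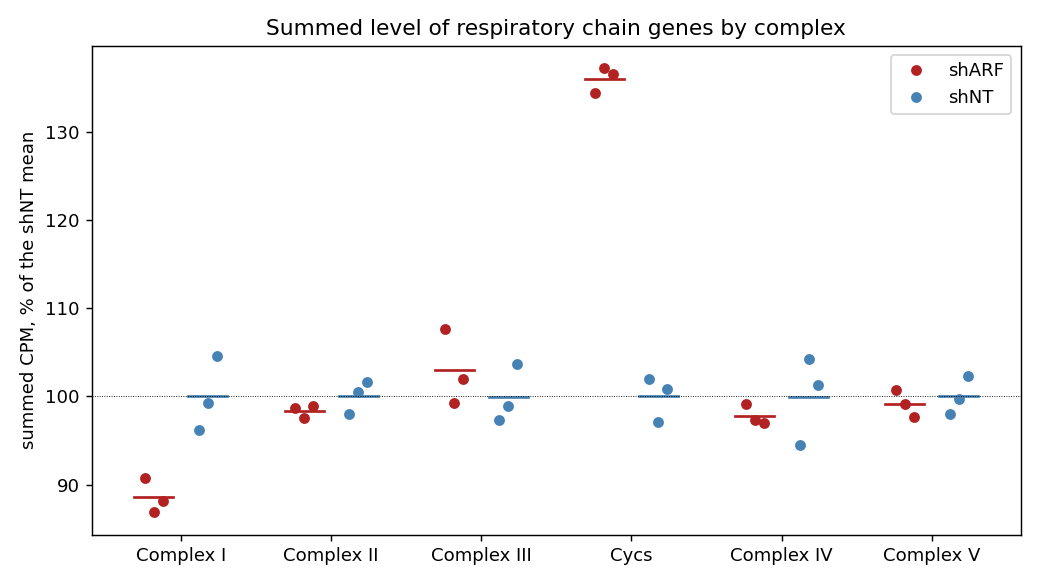
Summed CPM of the members of each complex in each library, as a percentage of the mean of the 3 shNT libraries (points are libraries, short lines are group means; the vertical axis does not start at 0). The 3 shARF sums of complex I lie below all shNT sums at a mean of 88.6%, and Cycs lies at 136%.

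Complex I, which oxidises NADH, had 5 members higher and 16 lower of 35 tested (14.3% and 45.7%, next to 28.8% and 27.7% of all genes tested), with a median log2 fold change of -0.21. Of its 7 nuclear core subunits, which hold the flavin and the iron-sulphur clusters, 0 were higher and 2 were lower (28.6%). Of the 28 accessory subunits around that core, 5 were higher (17.9%) and 14 lower (50%). The count of higher members was 3 without shARF replicate 2, without shNT replicate 1 or without shNT replicate 2, and 2 with library sizes alone.

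Ndufb7, an accessory subunit on the intermembrane side of the membrane arm, was the most changed of the complex I genes. It was at 27.2, 25.4 and 26.5 CPM in shARF, against 53.1, 54.8 and 56.6 CPM in shNT. The shARF libraries lay at about 0.481 of the shNT level and without overlap (GRCm38 chromosome 8, 83566671 to 83571626, plus strand; log2 fold change -1.06, SE 0.05, adjusted p = 3.39e-06). Its promoter, shown above, held none of the motifs searched. Ndufa13, also known as GRIM-19 and studied in cell death signalling as well as in complex I, was at 63.7, 55.1 and 60.2 CPM in shARF and at 79, 84.9 and 93.6 CPM in shNT (-0.52, SE 0.08, adjusted p = 0.00115). Ndufa7, a small accessory subunit, was at 48.3, 42.3 and 46.6 CPM in shARF and at 56.3, 61.7 and 65.6 CPM in shNT (-0.42, adjusted p = 0.00253). For each of these genes the lowest shNT library was above the highest shARF library.

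Ndufv3, which lies beside the flavoprotein, and Ndufa9, a relative of short-chain dehydrogenases, showed shifts of about the same size with little spread. Ndufv3 was at 32, 30.8 and 32.8 CPM in shARF and at 40.3, 41.4 and 42.6 CPM in shNT (log2 fold change -0.38, adjusted p = 3.59e-04). Ndufa9 was at 64.9, 65.8 and 66 CPM in shARF and at 83.7, 84.1 and 84.7 CPM in shNT (chromosome 6, 126821721 to 126849136, minus strand; -0.36, adjusted p = 5.45e-05). For Ndufa9 the SD of each group was below 1 CPM. The X-linked subunits Ndufa1 and Ndufb11, both of the membrane arm, were lower too. Ndufa1 was at 15.9, 16.4 and 17.3 CPM in shARF and at 21.3, 22.1 and 21.1 CPM in shNT (-0.38, adjusted p = 8.41e-04). Ndufb11 was at 57.1, 57.2 and 54.7 CPM in shARF and at 65.1, 65.5 and 69.4 CPM in shNT (-0.24, adjusted p = 0.00213). Ndufb11 shares 117 bases of exon with Rbm10 on the other strand. Whether counting used strand is not stated in the labels, so reads of such overlapping genes cannot be told apart.

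The 5 complex I members called higher, named after their values were seen, were Ndufb4, Ndufs6, Ndufs4, Ndufb6 and Ndufb2, all of them accessory subunits. Ndufb4 was at 47.2, 46.6 and 44.9 CPM in shARF and at 39.1, 38.9 and 37.9 CPM in shNT (log2 fold change 0.26, adjusted p = 0.00124). The other 4 had log2 fold changes between 0.14 (Ndufb2) and 0.24 (Ndufs6). Ndufs4 and Ndufs6 are known for mutations in human complex I deficiency. Exons of Ndufb2, Ndufs6 and Ndufb6 overlap those of Braf, Mrpl36 and Smim27 on the other strand. The remaining 9 members called lower ranged from -0.36 to -0.15, and the 14 not called from -0.37 to 0.27.

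Complex II, the succinate dehydrogenase that joins the citric acid cycle to the chain, had both of its calls in the membrane anchors. Of 4 tested, 1 was higher (25%) and 1 lower (25%), next to 28.8% and 27.7% of all genes tested. Sdhc, the large anchor subunit, was at 50.3, 49.1 and 49.1 CPM in shARF, against 70.5, 74.4 and 73.1 CPM in shNT (log2 fold change -0.55, SE 0.04, adjusted p = 2.13e-05). The groups did not overlap, and the shARF level was 0.681 of that in shNT (chromosome 1, 171127165 to 171150603, minus strand). Sdhd, the small anchor, was at 96.2, 97.1 and 93.3 CPM in shARF and at 82.9, 88.3 and 91.4 CPM in shNT (0.13, adjusted p = 0.0411). That call was lost in 10 of 16 alternatives, among them 5 of the 6 that leave out a library, with adjusted p between 0.03 and 0.981. Sdha, the flavoprotein, was at 209, 205 and 207 CPM in shARF and at 203, 204 and 203 CPM in shNT (0.03, 95% confidence interval -0.02 to 0.08, adjusted p = 0.265). Sdhb, the iron-sulphur subunit, was at 85, 84.5 and 92.8 CPM in shARF and at 81.5, 82.3 and 86.9 CPM in shNT (0.07, 95% confidence interval -0.05 to 0.18, adjusted p = 0.289). The catalytic subunits passed as lower in alternatives: Sdha with library sizes alone (-0.06, adjusted p = 0.0394) and against the 10 Mb window (-0.09, adjusted p = 0.0068), within 0.0068 to 0.946 over 16 alternatives. Sdhb passed against the window (-0.15, adjusted p = 0.0369, within 0.0369 to 0.688).

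Per kilobase of the principal transcript, the levels of Sdhd, Sdhb and Sdha lay close together, and Sdhc lay well below them. In shARF they were 77.6 ± 1.64, 76.6 ± 4.06, 71.5 ± 0.678 and 15.6 ± 0.221 CPM per kilobase (SD, n = 3). In shNT they were 71.1 ± 3.47, 73.2 ± 2.53, 70.1 ± 0.206 and 22.9 ± 0.636 CPM per kilobase. The order of Sdhd and Sdhb was not settled, since their means lie within 1 SD of Sdhb in both groups. The Sdhc transcript used is 3171 bases long, and use of a shorter one would raise its level per length by the same factor in both groups.

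Complex III, the cytochrome bc1 complex, had 3 members higher and 2 lower of 9 tested (median log2 fold change 0.06). The shares were 33.3% and 22.2%, next to 28.8% and 27.7% of all genes tested. Uqcrq, a small membrane subunit, was at 82.5, 78.8 and 80 CPM in shARF and at 64.6, 68.9 and 70.2 CPM in shNT (0.24, adjusted p = 0.00238). Cyc1, which carries the haem that reduces cytochrome c, was at 156, 136 and 148 CPM in shARF and at 127, 128 and 121 CPM in shNT (0.22, adjusted p = 0.00951). The call for Cyc1 was lost with library sizes alone and with the fold change set against the gene's neighbourhood (adjusted p 0.00114 to 0.114 over 16 alternatives). The core proteins, which face the matrix, went opposite ways. Uqcrc2 was at 97.5, 97.3 and 97.3 CPM in shARF and at 85.4, 86.8 and 87.1 CPM in shNT (0.17, adjusted p = 0.00125). Uqcrc1 was at 136, 120 and 123 CPM in shARF and at 143, 144 and 154 CPM in shNT (-0.22, adjusted p = 0.012). The groups did not overlap for any of these 4 genes. The count of lower members was 1 without any 1 of the libraries other than shNT replicate 1, and the 4 members not called ranged from -0.07 to 0.09.

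Cycs, the somatic cytochrome c that carries electrons from complex III to complex IV and triggers the apoptosome once it is released, was higher in shARF. It was at 93.9, 95.9 and 95.4 CPM in shARF, against 71.3, 67.9 and 70.5 CPM in shNT. The shARF libraries lay close together and all above shNT, at 1.36 times its level (chromosome 6, 50562563 to 50566538, minus strand; log2 fold change 0.44, SE 0.03, adjusted p = 3.41e-05). This call held in all 16 alternatives, with adjusted p up to 9.79e-04.

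Complex IV, cytochrome c oxidase, had 3 members higher and 4 lower of 13 tested. The shares were 23.1% and 30.8%, next to 28.8% and 27.7% of all genes tested. Cox5a, a matrix-side subunit found in all tissues, was at 91.5, 90.2 and 92.4 CPM in shARF, against 62.7, 62.6 and 73.2 CPM in shNT (log2 fold change 0.47, SE 0.06, adjusted p = 8.43e-04). All shARF libraries lay above the highest shNT library, and shNT replicate 3 was above the other 2 of its group (chromosome 9, 57521274 to 57532426, plus strand). Cox8a, a small membrane subunit, was at 128, 127 and 125 CPM in shARF and at 116, 116 and 113 CPM in shNT (0.13, adjusted p = 0.00376). The call for Cox8a was lost with library sizes alone (adjusted p = 0.222, within 7.78e-04 to 0.222 over 16 alternatives). The count of higher members was 5 without shNT replicate 3.

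Lower in shARF were Cox7b, Cox6b1, Cox5b and Cox4i1. The X-linked Cox7b was at 83.9, 79.8 and 79.8 CPM in shARF and at 94.2, 97.3 and 101 CPM in shNT (log2 fold change -0.27, adjusted p = 0.00117). Cox6b1, at the docking face for cytochrome c, was at 65.2, 65.4 and 66.7 CPM in shARF and at 78.1, 77.2 and 79.9 CPM in shNT (-0.25, adjusted p = 4.66e-04). Cox5b, a zinc-binding subunit, was at 58.2, 54.1 and 51.7 CPM in shARF and at 61.6, 62.1 and 64.1 CPM in shNT (-0.20, adjusted p = 0.0149). For these 3 genes the groups did not overlap. The call for Cox5b was lost against the 10 Mb window (-0.11, adjusted p = 0.101, within 0.00241 to 0.101 over 16 alternatives). Cox4i1, the common form of the subunit at which ATP binds, was at 101, 78.1 and 72.7 CPM in shARF and at 101, 112 and 115 CPM in shNT (-0.38, SE 0.12, adjusted p = 0.0369). Here shARF replicate 1 was level with shNT replicate 1. The call was lost in 7 of 16 alternatives, with adjusted p from 0.00141 without shARF replicate 1 to 0.383. It was 0.111 and 0.101 without shARF replicate 2 or 3, and 0.0938 and 0.0988 without shNT replicate 2 or 3. Cox4i1 also shares 154 bases of exon with Emc8 on the other strand.

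Cox6a1 and Cox7a2, the common forms of subunits that have heart and muscle forms, were not called. Cox6a1 was at 110, 111 and 109 CPM in shARF and at 106, 108 and 118 CPM in shNT (log2 fold change 0.00, adjusted p = 0.952). It passed against the 10 Mb window alone (adjusted p = 0.0241, within 0.0241 to 0.998 over 16 alternatives). Cox7a2 was at 82.6, 77.5 and 77.5 CPM in shARF and at 65.2, 72.3 and 74.7 CPM in shNT (0.16, adjusted p = 0.0502). The groups were apart for Cox7a2, which passed the test without shNT replicate 3 (adjusted p = 0.0386), with limma-voom (0.043) and with DESeq2 (0.0352), within 0.0352 to 0.305 over 16 alternatives. Ndufa4, once assigned to complex I and now to complex IV, was at 67.1, 61.4 and 60.9 CPM in shARF and at 64.7, 108 and 71.7 CPM in shNT (-0.37, 95% confidence interval -0.81 to 0.07, adjusted p = 0.133). The value of shNT replicate 2 was well above the other 5, and without it the log2 fold change was -0.11. Without shNT replicate 1 it was -0.52 (adjusted p = 0.0488, within 0.0488 to 0.257 over 16 alternatives).

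The tissue-restricted forms of complex IV subunits were at or near 0. Cox6a2, the heart and muscle form, had 31, 40 and 51 counts in shARF and 5, 19 and 6 counts in shNT, or at most 1.14 CPM. Its log2 fold change was 2.05 (SE 0.46, adjusted p = 0.00804), and 2.83 without shNT replicate 2. As a share of Cox6a1 and Cox6a2 per length, it made up 0.694 ± 0.174% in shARF and 0.164 ± 0.12% in shNT (SD, n = 3 each). Of the 8 muscle markers, Myod1, Myog, Ckm, Actn2 and Myh6 were at 0 in all libraries. Tnnt2 averaged 1.11 CPM in shARF and 0.793 CPM in shNT and was not called. Myf5 and Myh3 had reads in shARF replicate 3 alone (0.0895 and 0.0224 CPM). Ndufa4l2, known as a hypoxia-induced relative of Ndufa4, had 6, 6 and 5 counts in shARF and 0 in shNT, at least 5.78-fold higher if shNT is set to a floor of 3 counts over its 3 libraries. It shares 32 bases of exon with Shmt2 on the other strand, which was at 392 CPM in shARF and 235 CPM in shNT. Cox4i2, the form induced by low oxygen in lung and other cells, had 0 counts in shARF and 6, 2 and 2 in shNT, at least 3.27-fold lower with the same floor set for shARF. Cox7a1, the muscle form, had 6, 6 and 0 counts in shARF and 0 in shNT, and Cox6b2, a testis form, had 5, 0 and 0 in shARF and 3, 16 and 8 in shNT. Floors cover counting error only. Cox7b2, Cox8b, Cox8c and the second gene ID of Atp5o had 0 counts in all 6 libraries.

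**Figure D3:**
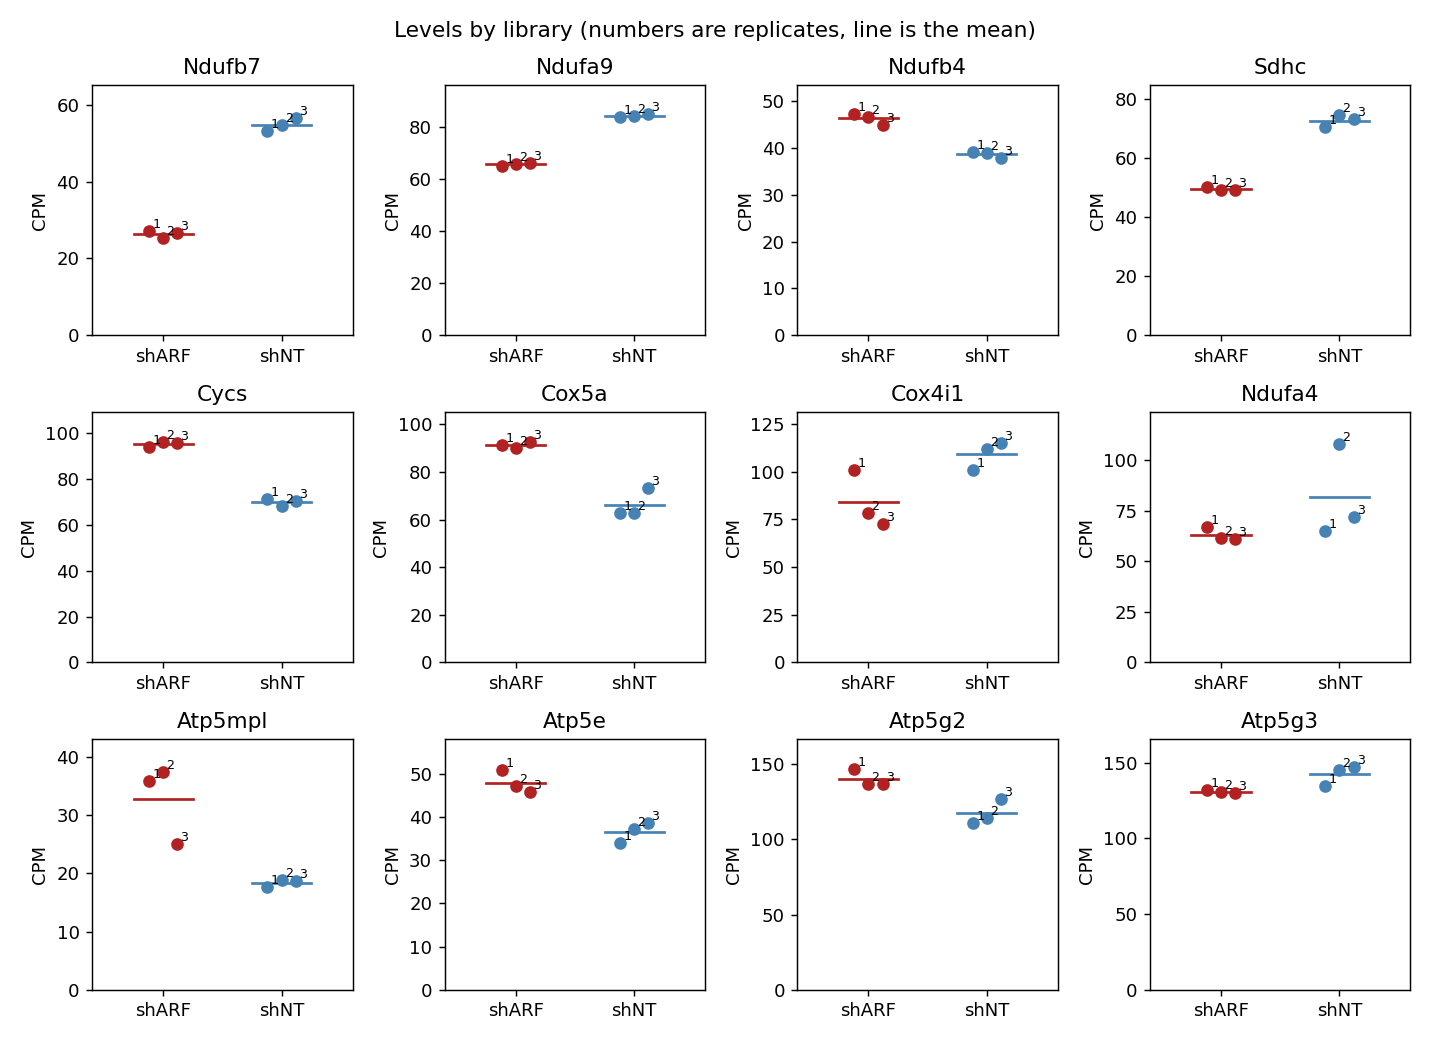
CPM of 12 members in each library (points with the replicate number; the line is the group mean; every vertical axis starts at 0). The groups are apart for Ndufb7, Ndufa9, Ndufb4, Sdhc, Cycs, Cox5a, Atp5mpl, Atp5e, Atp5g2 and Atp5g3, and they overlap for Cox4i1 and Ndufa4, where shNT replicate 2 lies at 108 CPM.

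Complex V, the ATP synthase, had 4 members higher and 4 lower of 17 tested (median log2 fold change 0.07). The shares were 23.5% each, next to 28.8% and 27.7% of all genes tested. Atp5mpl, a small proteolipid of the membrane part, was at 36, 37.5 and 25 CPM in shARF, against 17.7, 18.8 and 18.7 CPM in shNT. Replicate 3 of shARF was below the other 2, and all 3 lay above shNT (log2 fold change 0.84, SE 0.15, adjusted p = 0.00277). Atp5e, the epsilon subunit of the rotating stalk, was at 51, 47.2 and 45.9 CPM in shARF and at 34.1, 37.3 and 38.6 CPM in shNT (0.39, SE 0.06, adjusted p = 0.00185). In F1, here the catalytic head with its rotating stalk, 2 of 5 genes were higher (40%) and 1 lower (20%). The higher genes were Atp5e and Atp5c1 (0.13, adjusted p = 0.041). Atp5a1, the alpha subunit of the head, was not called (0.07, adjusted p = 0.301). The lower gene was Atp5b, the catalytic beta subunit, at 686, 679 and 679 CPM in shARF and 756, 735 and 784 CPM in shNT (-0.15, adjusted p = 0.00214). Against its 10 Mb window, whose median was -0.24, Atp5b turned to 0.08 (adjusted p = 0.0306, the highest over 16 alternatives). Of the 4 genes of the peripheral stalk, which holds the head still, 2 were lower (50%) and 0 higher. Atp5h, subunit d of that stalk, was at 93.3, 86.2 and 91.9 CPM in shARF and at 102, 106 and 110 CPM in shNT (-0.23, adjusted p = 0.00442). Atp5f1, its subunit b, was at 152, 159 and 154 CPM in shARF and at 175, 174 and 175 CPM in shNT (-0.17, adjusted p = 0.00102). The groups did not overlap for Atp5mpl, Atp5e, Atp5b, Atp5h or Atp5f1. Atp5f1 shares 337 bases of exon with Wdr77 on the other strand.

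The proton-driven ring of complex V is built from copies of a single mature protein made by Atp5g1, Atp5g2 and Atp5g3, whose import sequences differ. Atp5g2 was at 147, 137 and 137 CPM in shARF and at 111, 114 and 127 CPM in shNT (log2 fold change 0.26, SE 0.06, adjusted p = 0.00786). Atp5g3 was at 132, 131 and 130 CPM in shARF and at 135, 145 and 147 CPM in shNT (-0.12, SE 0.04, adjusted p = 0.0272). Both promoters, shown above, hold the NRF1 letters. The call for Atp5g3 was lost in 7 of 16 alternatives, 5 of them with a library left out, where adjusted p lay between 0.0644 and 0.0913. Only without shNT replicate 1 was it kept among those (adjusted p = 0.00333, within 0.0019 to 0.0913 over the 16). Atp5g1 was at 99, 91 and 93.1 CPM in shARF and at 85.2, 85.1 and 93.6 CPM in shNT (0.10, adjusted p = 0.14). It passed without shNT replicate 3 and against its window, with adjusted p between 0.00858 and 0.856 over 16 alternatives.

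As shares of their summed CPM per kilobase, Atp5g2 made up 49.7, 48.4 and 48.4% in shARF and 42.6, 41.7 and 43.8% in shNT. Atp5g3 made up 45.1, 46.6 and 46.5% in shARF and 52.3, 53.5 and 51.2% in shNT. With these lengths Atp5g2 held the larger share in all 3 shARF libraries and Atp5g3 in all 3 shNT libraries, with differences of 6.17 and -6.3 percentage points (shARF minus shNT). A two-sided exact permutation test returned p = 0.1 for each, the smallest possible (adjusted p = 0.16 over the 8 shares tested). The transcript lengths of Atp5g1 and Atp5g2 are not settled: their principal transcripts are 596 to 4715 and 441 to 731 bases long. With the shortest transcripts, an alternative added after seeing the data, Atp5g2 held 48.3% in shARF and 43.4% in shNT, and Atp5g3 held 27.8% in shARF and 32.5% in shNT. Atp5g2 then held the larger share in both groups, so which gene leads in shNT depends on the transcript, while the direction of each difference does not. Atp5g1 then held 24% in both groups, against 5.08% in shARF and 4.95% in shNT with the longest ones.

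On some chromosomes all called members went the same way. All 3 members on chromosome 8 (Ndufb7, Ndufa13 and Cox4i1) and all 3 on chromosome X (Ndufa1, Ndufb11 and Cox7b) were lower in shARF. Genes of these chromosomes were lower in shARF in general: 52.2% of the 895 tested genes on chromosome 8 were called lower (median log2 fold change -0.27), and 39.2% of the 587 on chromosome X (median -0.14). On chromosome 17, 40.1% of 811 tested genes were called lower (median -0.14), with 3 of 6 members lower and 0 higher. Ndufa7 and Ndufv3 lie there, each with a window median of -0.14, and their calls held in all 16 alternatives. Chromosomes with a median near 0 also had members called in a single direction. On chromosome 1 (median -0.06), 4 of 6 members were lower and 0 higher. On chromosome 10 (median 0.01, 28.5% of 808 tested genes lower), 2 of 5 tested members were lower and 0 higher. On chromosome 13 (median 0.03), 2 of 6 members were higher and 0 lower. Xist was lower in the same libraries, as given above, and its part in the X-linked members was not tested. Ndufb7 at -1.06 lay well below the median of -0.30 of the other genes within its 10 Mb window (GRCm38 chromosome 8, gene at 83566671 to 83571626). Ndufb11 at -0.24, Cox7b at -0.27 and Cox4i1 at -0.38 lay nearer to their windows, at -0.31, -0.25 and -0.24. Set against the window, Ndufb11 stood at 0.07, Cox7b at -0.02 and Cox4i1 at -0.14, and none of these passed the test, with adjusted p of 0.188, 0.697 and 0.383. Those 3 adjusted p are each the highest over the gene's 16 alternatives. Ndufb7 (-0.76), Ndufa13 (-0.26) and Ndufa1 (-0.25) still did.

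Over the 79 members the log2 fold change and the median of the window had a Pearson correlation of 0.258 (Spearman 0.285), and 0.421 without Cox6a2, as a description over genes that share the same 6 libraries. Over 16982 genes, with none left out, the Pearson correlation was 0.123 and the Spearman 0.22. The 0.421 has no counterpart among these. Members and windows had the same sign for 44 of the 79. Atp5mpl on chromosome 12 had the largest rise among the members drawn and the highest window (0.84 and 0.36), and it stood at 0.48 against the window (adjusted p = 0.0315, its highest over 16 alternatives). Cycs (-0.01), Sdhc (-0.04) and Ndufa9 (-0.08) had windows close to 0.

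**Figure D4:**
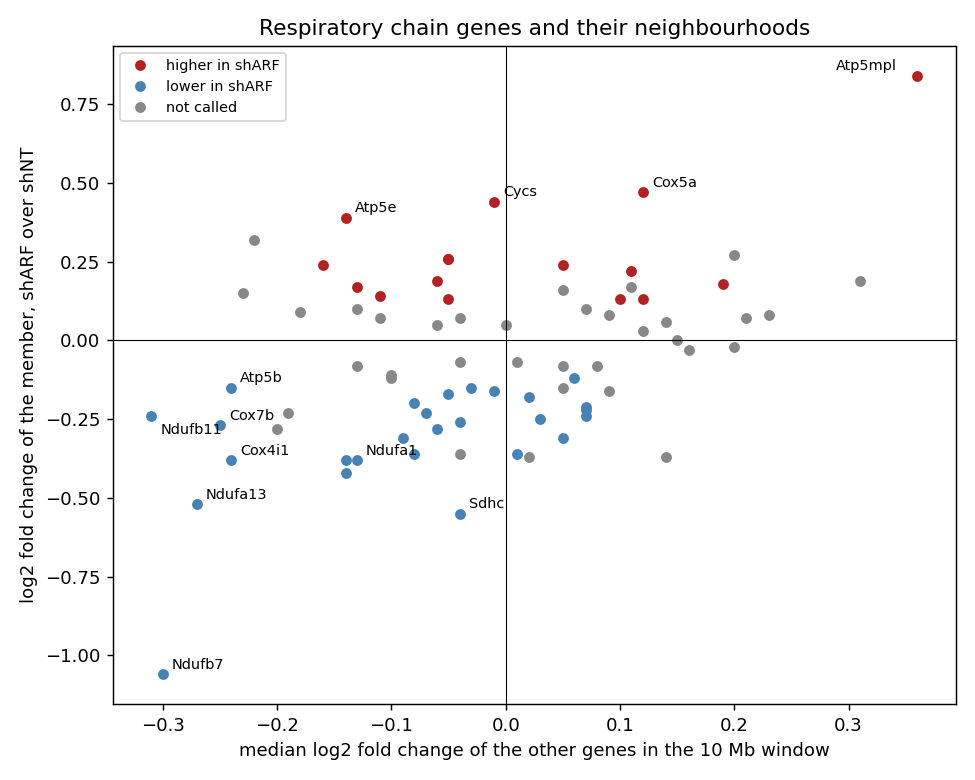
Log2 fold change of each member, shARF over shNT, against the median log2 fold change of the other tested genes within its 10 Mb window (78 points; Cox6a2, at 2.05, is left out of the plot). Red, blue and grey mark members called higher in shARF, lower or not called. Ndufb7, Ndufa13, Cox4i1, Cox7b and Ndufb11 lie at the left with windows between -0.31 and -0.24, and Atp5mpl lies at the upper right.

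Genes around the respiratory chain were read from lists of assembly factors, regulators and citric acid cycle enzymes. Of 49 assembly factors, 12 were higher and 13 lower in shARF (51% called, next to 56.4% of all genes). Nubpl, which delivers iron-sulphur clusters to complex I, was at 6.83, 7.12 and 6.96 CPM in shARF and at 2.76, 3.45 and 3.52 CPM in shNT (log2 fold change 1.10, adjusted p = 1.56e-04). Atpaf1, a chaperone for the beta subunit of complex V, was at 26.4, 27.1 and 25.4 CPM in shARF and at 16.4, 16.3 and 15.7 CPM in shNT (0.71, adjusted p = 2.55e-05). Surf1, needed for complex IV assembly, was at 14.4, 16.7 and 16.1 CPM in shARF and at 24.9, 26 and 25.5 CPM in shNT (-0.70, adjusted p = 1.22e-04). The genes that the name rule leaves out, Ndufab1 of complex I and Atpif1 (an inhibitor) and Usmg5 of complex V, were not called, at log2 fold changes of 0.05, -0.02 and 0.05.

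Of 20 regulators of mitochondrial genes, 10 were higher (50%) and 6 lower (30%) in shARF, next to 28.8% and 27.7% of all genes tested. Hif1a, the oxygen-sensing factor, was at 423, 415 and 449 CPM in shARF and at 225, 240 and 219 CPM in shNT (log2 fold change 0.91, adjusted p = 5.63e-06). Foxo1 was at 66.4, 74.8 and 70.8 CPM in shARF and at 35.8, 36.7 and 35 CPM in shNT (0.98, adjusted p = 8.43e-06). Both are transcription factors with known metabolic targets. Tfe3, a lysosomal and mitochondrial regulator on chromosome X, was at 77.9, 76.8 and 75 CPM in shARF and at 108, 108 and 109 CPM in shNT (-0.50, adjusted p = 1.11e-05). The 10 Mb windows of Hif1a, Foxo1 and Tfe3 had medians of 0.35, 0.11 and -0.33, and their calls held in all 16 alternatives. Named after their values were seen, the factors whose motifs were searched went different ways: Nrf1 (0.18) and Yy1 (0.37) were higher, and Gabpa (-0.38), an ETS factor, was lower. Their windows had medians of -0.11, 0.29 and -0.17. Ppargc1a, the coactivator PGC-1alpha, also named after its values were seen, was at 1.4 ± 0.195 CPM in shARF and 3.53 ± 0.345 CPM in shNT (-1.33, adjusted p = 2.60e-04). Ppargc1b and Pprc1, of the same list and named in the same way, were higher in shARF. Ppargc1b was at 1.67 ± 0.295 CPM in shARF and 0.767 ± 0.163 CPM in shNT (adjusted p = 0.00452). Pprc1 was at 74.4 ± 4.9 CPM in shARF and 57.7 ± 2.85 CPM in shNT (adjusted p = 0.00192).

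Of 21 citric acid cycle and pyruvate dehydrogenase genes, 8 were higher and 11 lower in shARF (90.5% called, next to 56.4% of all genes tested), with a median log2 fold change of -0.09. The share over all genes was not matched for level. Pdk4, a kinase that switches pyruvate dehydrogenase off, was at 2.01, 1.82 and 1.68 CPM in shARF and at 8.36, 8.87 and 9.4 CPM in shNT (log2 fold change -2.27, adjusted p = 3.35e-06). Idh3b, a subunit of the NAD-dependent isocitrate dehydrogenase, was at 72, 73.8 and 69.8 CPM in shARF and at 98.1, 98.6 and 101 CPM in shNT (-0.47, adjusted p = 3.23e-05). Dlat, the acetyltransferase of pyruvate dehydrogenase, was at 102, 103 and 101 CPM in shARF and at 72.8, 73.8 and 66.4 CPM in shNT (0.52, adjusted p = 8.91e-05). The groups were apart for each of these 3 genes.

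Per length, the members spanned a wide range of levels. Among members whose principal transcripts differ in length by at most 1.5 times, Atp5b was the highest, at 356 ± 2.18 CPM per kilobase in shARF and 396 ± 12.9 in shNT (SD, n = 3 each). Next came Cox8a of complex IV, at 230 ± 3.02 in shARF and 209 ± 2.91 in shNT, and Atp5a1, the alpha subunit beside Atp5b, at 219 ± 3.93 in shARF and 210 ± 14.9 in shNT. In shNT the order of those last genes lies within the spread. In complex I, Ndufb9, named like Atp5a1 after its values were seen, was the highest at 142 ± 0.99 CPM per kilobase in shARF and 177 ± 3.73 in shNT. Cycs was at 30.4 ± 0.342 CPM per kilobase in shARF and 22.4 ± 0.561 in shNT. By this measure Ndufb7 was at 42.3 ± 1.47 in shARF and 88 ± 2.81 in shNT, and Ndufa9 at 45.4 ± 0.427 in shARF and 58.2 ± 0.352 in shNT, so that Ndufb7 lay above Ndufa9 in shNT and below it in shARF. These levels use a single transcript per gene, and their order shifts with the transcript chosen.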

How the data were processed

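RNA-seq of 3 shARF and 3 shNT libraries was read from 1 table of whole-number counts per gene that the authors deposited. Per the submitters' processing notes, HISAT2 2.1.0, StringTie 1.3.2, Trim Galore 0.4.1, Picard 2.13.2, SAMtools 0.1.19 and DESeq2 1.34.0 were used with GRCm38, with no role given. The counting tool, the strand setting and any removal of duplicates, which can lower abundant genes, are not stated there. The table has 6 columns of no sample here, used in no step. Columns were matched on group, the label neo and replicate, since the index number in the shARF columns differs from the titles. Symbols, types and lengths came from GENCODE M21, with 54723 of 54752 IDs matched ignoring the version. The 29 rows without a symbol held 0.00291% of counts.

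Counts were tested with edgeR 4.0.16 (quasi-likelihood F test, two-sided, TMM, filterByExpr with minimum count 10 and minimum total 15, prior count 0.125) and adjusted by Benjamini-Hochberg over 17128 genes at 0.05. Every adjusted p in the text is from this test unless another is named. CPM are scaled by the TMM factors. Totals were 40.3 to 47.0 M counts, and the depth limits genes of a few counts. All 6 libraries were kept as separate samples, since the chi-square per gene was 13.7 to 18.5 within groups (135 to 144 between them), above sampling noise. The steps were tested on simulated data.

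Levels per length use the longest principal transcript. Windows span 10 Mb and hold at least 15 tested genes. Ndufa4 and Ndufa4l2 were read with complex IV. The text names, per complex, the called members with the largest change at 5 CPM or more (up to 6 for complexes I, IV and V, up to 4 for the others), complex II, isoform pairs, X-linked members, changes of 2-fold or more, and the 3 genes with the smallest p of each other list. Members and lists were chosen with earlier results of these data known. Alternatives were RLE, upper quartile and library-size scaling, no filter, at least 1 CPM in 3 libraries, a replicate block, each library left out, the window as offset, counts of 8 pseudogene rows added, limma-voom (limma 3.58.1), DESeq2 1.42.0, a threshold of 0.01 and Ndufa4 in complex I.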

Additional observations from a re-analysis of the deposited data

How the results depend on the processing

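Of 398 counts, medians and shares under the alternatives, 366 kept their direction and, for counts, lay within 1.5 times of the reported value, or, for the median, within the spread. With library sizes alone the members called higher were 10, those of complex I 2 and those of complex II 0, the lower ones were 2 in complex II and 20 among assembly factors, and the members' median was -0.16. Against the 10 Mb window complex II had 0 higher and 3 lower and complex IV 2 lower, and the signs turned for Atp5b (0.08), Ndufb11 (0.07), Sdha (-0.09) and Sdhb (-0.15). Sdha also turned with library sizes alone (-0.06). With no filter, complex II had 0 higher and complex III 1 lower. Upper quartile scaling gave 0 higher in complex II, DESeq2 gave 5 higher in complex IV, and a threshold of 0.01 gave 17 members lower. The cause of these changes was not tested, beyond what each alternative does by construction.

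Leaving out each library in turn gave 13 to 20 members higher and 22 to 34 lower, 3 to 5 higher in complex I, 0 to 1 higher in complex II, 1 to 2 lower in complex III and 3 to 5 higher in complex IV. No pairing by replicate number was seen, as the deviations of same-numbered libraries correlated at -0.181, -0.0662 and -0.082. With deviations from means of 3 libraries, these values cannot settle whether same-numbered libraries shared a culture. With the replicate block the members were 14 higher and 22 lower, with 3 higher in complex I, 0 higher in complex II and 1 lower in complex III. Adding the counts of pseudogene rows left 17 members higher and 27 lower. With 3 libraries a group, shares could not reach an exact permutation p below 0.1. With the shortest transcripts, added after seeing the data, the share of Atp5g1 turned to a difference of -0.0844 percentage points, against 0.13, and no other share turned. The depth of 40.3 M or more leaves Cox6a2 at 51 counts or fewer per library and the other tissue-restricted forms at 16 or fewer.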

Other observations

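Some members varied within a group by more than most. At 10 CPM or more, 9 of 77 members (11.7%) had a highest library over 1.3 times the lowest in at least 1 of the groups. The share over 9755 genes was 11.4%, so that the share of members is near the background. These members were Atp5j2, Atp5mpl, Cox4i1, Cox7a2l, Ndufa4, Ndufb10, Ndufc1, Ndufv1 and Uqcr11, named by this spread. Cox7a2l, a relative of Cox7a2 known from respiratory supercomplexes, was at 58.9, 88.5 and 90.3 CPM in shARF and at 57.7, 85 and 48 CPM in shNT. Atp5j2, a membrane subunit of the ATP synthase, was at 51.6, 74.4 and 74.3 CPM in shARF and at 72, 53.6 and 51.8 CPM in shNT. For both genes a group held libraries at a higher and at a lower level, and the groups overlapped. Ndufv1, the flavin-binding core subunit of complex I, was at 54.7, 47.6 and 45.6 CPM in shARF and at 54.6, 58.5 and 77.1 CPM in shNT.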
